A study of Caenorhabditis elegans with 4 samples.

Results

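The lbp genes of Caenorhabditis elegans encode the worm's intracellular lipid-binding proteins, relatives of the fatty acid-binding proteins of mammals. Genes were taken where an annotation table gave a probe a symbol of lbp- followed by a number and the probe had a value on 3 or more arrays. This gave 8 genes, lbp-1 to lbp-8, each with 1 probe measured on all 4 arrays, out of 14936 named genes and 19943 genes and single probes tested. RefSeq names 9 lbp genes, and lbp-9 is not analysed here.

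The samples were 4 numbered preparations of wild-type worms at L3, the third larval stage, with no mutation or treatment named. Each was hybridised once, in the second channel of a 2-colour array, against the first channel, which held RNA labelled only as a wild-type mixed reference. The labels give no worm ages, no culture conditions, no composition of the reference and no statement that the preparations came from separate cultures, so p-values cover the variation among these 4 arrays and may reflect technical error alone. Values are log2 ratios, likely L3 over reference, centred on each array's median: 1 is a doubling in L3, and 0 is the median gene. The direction is called likely because the dyes are not labelled and the descriptions name L3 before the reference. The reference was in the first channel throughout, so a dye bias that repeats on every array cannot be told apart from a difference between the RNAs. Whole worms were measured, so fewer cells that express a gene and less RNA per cell cannot be told apart. The adult and oocyte transcripts vit-2, vit-5, vit-6, rme-2 and col-19 had means between -6.32 and -3.54, all past the threshold on the low side. With the ratio turned, these transcripts would be 11.7-fold to 79.7-fold higher in L3 larvae than in the reference. The values thus bear on the direction and the stage label together, and check neither alone.

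Fatty acids are nearly insoluble in water, and lipid-binding proteins carry them inside a barrel of beta strands through the cytosol, between membranes, lipid droplets, mitochondria, peroxisomes and the nucleus. In C. elegans some members do more than move fuel. LBP-8 is known for taking a lipid signal from lysosomes to nuclear receptors in the intestine, and LBP-1, LBP-2 and LBP-3 carry predicted secretion signals. The comparison asks how transcript levels of these carriers at L3 stood against the mixed reference.

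The family did not move as 1 block. lbp-7 and lbp-6 were higher in L3, by 7.44-fold and 3.63-fold, on every array. lbp-8 had a similar mean but a spread over arrays that kept it from passing, and lbp-5 had the lowest mean because of 1 array. The means of lbp-1, lbp-2, lbp-3 and lbp-4 lay between -0.74 and 0.48 and did not pass. A gene was called at a Benjamini-Hochberg adjusted p under 0.05 in limma, adjusted over all 19943 genes and probes. By this rule 2 of 8 lbp genes were higher and 0 lower. lbp-8, above 0, and lbp-1, below 0, had an unadjusted limma p under 0.05 but did not pass. The share of all genes and probes at that looser level is not given here. The shares that follow are for the adjusted rule alone. Of all genes and probes tested, 19.1% were called, 8.31% as higher and 10.8% as lower in L3. The median of the 8 means was 0.36, against 0.02 over all genes and probes.

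**Figure D1:**
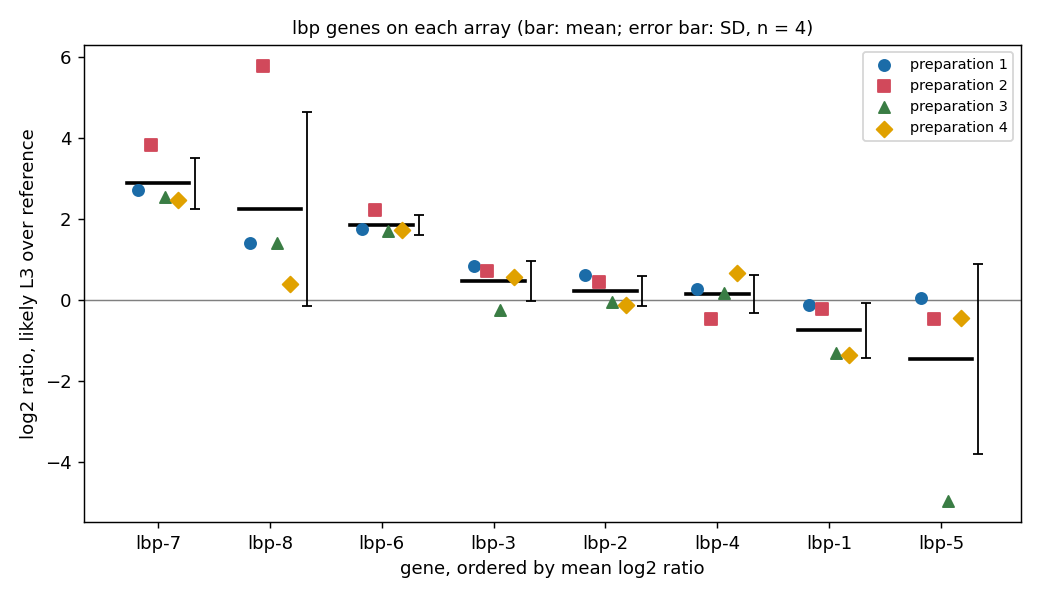
Log2 ratio (vertical axis, likely L3 over reference) of each lbp gene on each of 4 arrays; points are preparations, bars are means and error bars SD. lbp-7 and lbp-6 lie above 0 on every array, with SDs of 0.63 and 0.24, while lbp-8 reaches 5.78 on 1 array and lbp-5 falls to -4.94 on another.

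lbp-7 had log2 ratios of 2.73, 3.83, 2.54 and 2.49 in preparations 1 to 4. All 4 lay far above 0, with preparation 2 the highest and the other 3 close together. The mean was 2.90 ± 0.63 (SD, n = 4; limma adjusted p = 0.00145), and the 95% interval of the fold ran between 4.87 and 11.4. It ranked 44th from the top among named genes by mean ratio, with 99.7% of all genes and probes below it; with the ratio turned, the same rank would be counted from the bottom. lbp-6 lay at 1.75, 2.22, 1.72 and 1.74, again with preparation 2 above 3 nearly equal values. Its mean was 1.86 ± 0.24 (limma adjusted p = 0.00135), with a fold interval between 2.78 and 4.74. Both genes kept their call with any 1 preparation left out. The means then lay between 2.59 and 3.03 for lbp-7 (adjusted p between 0.00133 and 0.0112) and between 1.74 and 1.91 for lbp-6 (adjusted p between 0.00328 and 0.0106). The SD of lbp-6 was below the median SD of 0.36 over all genes and probes, and that of lbp-7 was above it.

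lbp-8, which encodes the lysosome-to-nucleus carrier, lay at 1.42, 5.78, 1.43 and 0.40. All 4 values were above 0, and the ratio in preparation 2 was 54.9 where the other 3 arrays gave between 1.32 and 2.69. The mean was 2.26 ± 2.40, and the call was missed (limma adjusted p = 0.108, unadjusted p = 0.0323). Without preparation 2 the mean was 1.08 ± 0.59 (n = 3) and the gene passed (limma adjusted p = 0.0451). Preparation 2 also had the widest spread of all arrays, with a median absolute deviation of 0.58 against 0.28 to 0.39 on the others. When the arrays were scaled to a common spread, lbp-8 passed with a mean of 1.85 (limma adjusted p = 0.0442). Its mean was above 0 in every alternative run, with adjusted p between 0.0442 and 0.185, and the fold was 4.78 with all arrays and 2.12 without preparation 2. Of 19201 genes and probes measured on 4 arrays, 16 stood as far or farther above their other 3 values in preparation 2, lbp-8 among them.

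lbp-5, which has been linked to fat storage in worms, lay at 0.07, -0.46, -4.94 and -0.43. Preparation 3 was alone in its low value, a ratio of 0.0326, and the other 3 arrays lay near 0. The mean was -1.44 ± 2.35 (limma adjusted p = 0.253), with a fold interval between 0.0951 and 1.43. Without preparation 3 the mean was -0.27 (limma adjusted p = 0.423). A gap this large below the other 3 values in preparation 3 was seen for 2 of 19201 genes and probes, lbp-5 being 1 of them. lbp-8 and lbp-5 ranked 54th and 60th of 19943 in SD. Signal intensities were not analysed here, so whether either spot was dim or flawed was not tested.

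**Figure D2:**
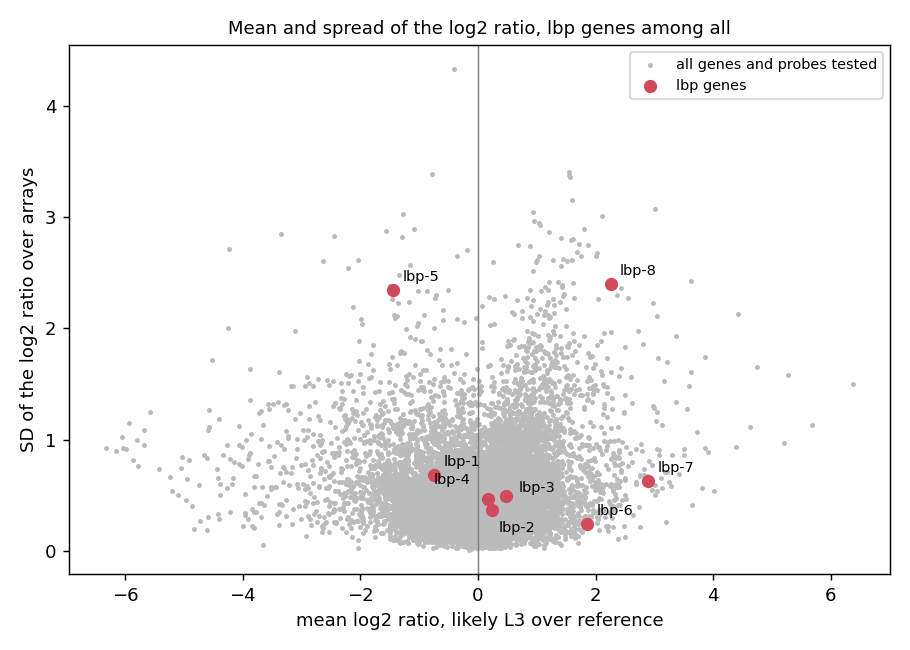
Mean log2 ratio (horizontal axis, likely L3 over reference) against its SD over arrays (vertical axis) for all 19943 genes and probes in grey and the 8 lbp genes in red. lbp-8 and lbp-5 stand at SDs of 2.40 and 2.35, where few genes lie, and lbp-6 at 0.24.

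lbp-1, lbp-2 and lbp-3, the genes for the potentially secreted members, had means nearer 0 than lbp-6, lbp-7 and lbp-8. The same held for lbp-4 and lbp-5. lbp-3, whose protein in C. elegans is known to leave the intestine as a lipid carrier towards neurons, lay at 0.86, 0.72, -0.24 and 0.58. Preparation 3 alone was below 0, and the mean of 0.48 ± 0.49 did not pass (limma adjusted p = 0.169). lbp-2 lay at 0.63, 0.46, -0.03 and -0.12, above 0 in preparations 1 and 2 and near 0 in the others. Its mean was 0.23 ± 0.37 (limma adjusted p = 0.400), and the 95% fold interval, 0.864 to 1.603, holds no larger increase. lbp-1 lay at -0.11, -0.20, -1.296 and -1.36, below 0 on every array and in a low pair and a near-0 pair. The mean was -0.74 ± 0.68 and missed the threshold (limma adjusted p = 0.105, unadjusted p = 0.0311).

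lbp-4 lay at 0.28, -0.46, 0.18 and 0.67, with preparation 2 the only one below 0. Its mean of 0.16 ± 0.47 was within the spread of the arrays (limma adjusted p = 0.607), and the fold interval ran between 0.790 and 1.59. lbp-4 and lbp-2 had the means closest to 0, and their intervals bound the change that these arrays allow.

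In all, 4 of 8 lbp genes had 1 sign on all 4 arrays: lbp-6, lbp-7 and lbp-8 above 0 and lbp-1 below. Over all genes and probes measured on 4 arrays this share was 46.2%.

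**Figure D3:**
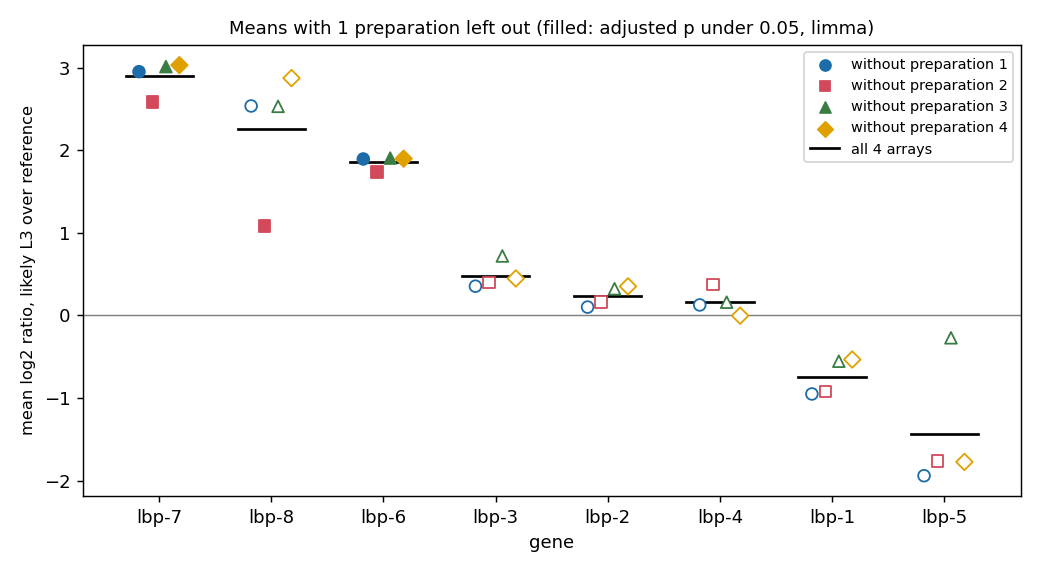
Mean log2 ratio (vertical axis, likely L3 over reference) of each lbp gene with 1 preparation left out (points, by preparation) beside the mean over all 4 arrays (bar); filled points pass the threshold in limma. lbp-7 and lbp-6 pass in every case, lbp-8 only without preparation 2, and lbp-5 moves to -0.27 without preparation 3.

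The low and near-0 pairs of lbp-1 followed the month written in the array titles. Preparations 1 and 2 carry a later month than 3 and 4, and what was done in that month is not stated. lbp-1 averaged -0.15 in the later month and -1.33 in the earlier one, a difference of 1.17. The 2 months did not overlap for 5 of 8 lbp genes (lbp-1, lbp-2, lbp-3, lbp-6 and lbp-7). Over all genes and probes measured on 4 arrays the share was 37.6%, counted in either direction. All 5 lbp genes were higher in the later month, and the share of all genes and probes with that direction is not given here. With month as a fixed term in limma, a fit added after the data were seen, no lbp gene's month difference passed. lbp-1 had the smallest p among them (unadjusted p = 0.00790, limma adjusted p = 0.558). Of all features measured on 4 arrays, 0 of 19201 genes and probes passed for month, with 1328 at an unadjusted p under 0.05. In the same fit the overall mean of lbp-1 passed (limma adjusted p = 0.0201; between 0.0232 and 0.737 in the other alternatives). In preparations 3 and 4 alone lbp-1 lay at -1.33 (limma adjusted p = 0.0232), and in 1 and 2 alone at -0.15 (adjusted p = 0.737). lbp-7 and lbp-6, which had passed over all these arrays, also passed within each month, from 2 arrays each. They lay at 3.28 and 1.99 in the later (limma adjusted p = 0.0134 and 0.0232) and 2.52 and 1.73 in the earlier (adjusted p = 0.00549 and 0.0122). The months are parts of the same data, so this is not a separate test. Of all genes and probes, 691 of 19488 were called higher in L3 in the later month and 716 of 19684 in the earlier. The titles also carry a code that begins with SJ for preparations 1 and 2, SI for 3 and SL for 4, and its meaning is not stated. Each preparation was measured once, so month, code and preparation cannot be told apart.

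By mean ratio the order ran lbp-7, lbp-8, lbp-6, lbp-3, lbp-2, lbp-4, lbp-1 and lbp-5. Differences between neighbours in this order were taken within each array. The order came from the same values, so every mean step is above 0 by construction, and the test below makes no allowance for this. The step between lbp-6 and lbp-3 was the only one with 1 sign on 4 of 4 arrays, 1.38 ± 0.46, with a lowest value of 0.89 (exact two-sided sign-flip permutation test, the smallest p that 4 arrays can give, above the threshold of 0.05 and 0.583 after adjustment over the 7 steps). The other 6 steps changed sign between arrays, and their SDs exceeded their means. lbp-8 was above lbp-6 in 1 array only, preparation 2. Ranks next to each other, other than lbp-6 over lbp-3, thus differ by less than their spread. In preparation 4 lbp-8, at 0.40, was also below lbp-3 and lbp-4.

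Most lbp genes sit in small groups on the chromosomes of RefSeq assembly WBcel235. lbp-3, lbp-1 and lbp-2 follow each other on X with no protein-coding gene between them. lbp-6 and lbp-5 lie on I with 1 gene, ant-1.2, between them, and lbp-7 and lbp-8 on V with 3 between them. lbp-4 lies apart from these on V.

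Within these groups, 3 of 5 pairs differed in 1 direction on every array, and no pair passed the threshold. These pairs were not among the planned comparisons, and the share for other pairs of genes is not given here. The pairs on X overlap, since lbp-1 is in both the lbp-3 and the lbp-2 pair. lbp-6 was above its neighbour lbp-5 on 4 of 4 arrays, by 1.68, 2.68, 6.66 and 2.17, a mean of 3.30 ± 2.28. The difference was thus present without preparation 3, where lbp-5 was alone in its low value. On X, lbp-1 was below both neighbours on 4 of 4 arrays. lbp-3 exceeded it by 1.22 ± 0.48 and lbp-2 by 0.97 ± 0.32, with smallest gaps of 0.92 and 0.66. lbp-3 and lbp-2 differed by 0.25 ± 0.37 with 1 array of the opposite sign. lbp-7 exceeded lbp-8 on 3 arrays, by 1.31, 1.11 and 2.09, and lay 1.95 below it in preparation 2. Of these 5 pairs, the 3 with 1 sign on every array had the smallest exact sign-flip permutation p that 4 arrays allow (0.208 after adjustment over the 5 pairs), so the threshold was out of reach. Genes of 1 family may cross-hybridise, which would draw their ratios together; probe sequences were not analysed here.

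The measured protein-coding genes beside lbp-7, lbp-6 and lbp-8 had means near 0 and did not pass. mec-6, beside lbp-6, and ZK742.6, beside lbp-4, were not among the genes tested, so lbp-6 and lbp-4 lack a value on that side. T22G5.1 and T22G5.3, on either side of lbp-7, had means of -0.26 ± 0.18 and 0.17 ± 0.18 (limma adjusted p = 0.252 and 0.462). ant-1.2, which encodes a mitochondrial adenine nucleotide carrier and lies between lbp-6 and lbp-5, averaged -0.03 ± 0.51 (adjusted p = 0.931). spp-12 and sptl-3, beside lbp-8, averaged -0.12 ± 0.29 and -0.05 ± 0.25 (limma adjusted p = 0.653 and 0.861), and in preparation 2 they lay at 0.03 and -0.27. smg-5, beside lbp-5, averaged -0.43 ± 0.14 (limma adjusted p = 0.0849) and in preparation 3 lay at -0.46. The high lbp-8 value in preparation 2 and the low lbp-5 value in preparation 3 were therefore not shared by the measured genes next to them. tba-9 and fbxb-71 flank the X group at -0.00 ± 0.17 and -0.34 ± 0.59. mig-6, beside lbp-4, was the only measured neighbour outside the family to pass, at 0.86 ± 0.42 (limma adjusted p = 0.0295). It failed the threshold whichever preparation was left out (adjusted p between 0.0553 and 0.0800).

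For each member, the named genes with the most similar set of 4 log2 ratios were found by root mean square difference over the 4 arrays. Nearest to lbp-7 were bcf-1 (difference 0.15, mean 2.95) and folt-2, a folate transporter gene (0.18, mean 2.96), and 12 named genes lay within 0.5. Nearest to lbp-6 were ugt-62, of the UDP-glucuronosyltransferase family (0.08, mean 1.85), and the troponin T gene tnt-2 (0.10, mean 1.82), with 158 genes within 0.5. lbp-3 was closest to the ribosomal protein genes rps-10 (0.03) and rpl-15 (0.09), and lbp-2 to F46F5.12 (0.05) and the ribosomal protein gene rpl-23A.1 (0.07). lbp-1 was closest to nlp-49 and F54D5.3 (both 0.16), and lbp-4 to T23F6.2 and cest-1.2 (both 0.08). No named gene came within 0.5 of lbp-8 or lbp-5. The nearest to lbp-8 was the guanylyl cyclase gene gcy-6 (0.55), with 5.95 in preparation 2, then the chemoreceptor gene srz-103 (0.64), with 4.95 there. The nearest to lbp-5 was mrpl-37, for a mitochondrial ribosomal protein (0.61), with -3.90 in preparation 3, then the collagen gene col-43 (1.204). Near matches to values around 0 are plentiful: 4412 named genes lay within 0.5 of lbp-2.

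Genes that make, sense or consume the ligands of these carriers give the setting. In lists chosen with earlier results of these data known, beta-oxidation genes lay mostly on the high side, with 25 of 38 measured genes higher and 2 lower in L3 (list median 0.90). Among them acox-1.2, for a peroxisomal acyl-CoA oxidase, averaged 3.86 ± 0.92 and the acyl-CoA dehydrogenase gene acdh-1 3.72 ± 1.07. The acyl-CoA synthetase gene acs-2 averaged -3.81 ± 0.57 (limma adjusted p between 0.000549 and 0.00237 for the 3 genes). Leaving out 1 preparation left between 18 and 22 beta-oxidation genes higher, and preparations 1 and 2 alone 14. The acyl-CoA-binding proteins are soluble carriers of activated fatty acids in the cytosol. Of 5 such genes measured 2 were higher, acbp-3 at 1.79 ± 0.43 and acbp-1 at 1.299 ± 0.27 (limma adjusted p = 0.00296 and 0.00425), and 0 were lower (list median 0.12).

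The genes on the path known for LBP-8 had ratios nearer 0. lipl-4, whose lysosomal lipase provides the lipid signal, averaged -0.71 ± 0.56 (limma adjusted p = 0.0844), with all 4 arrays below 0. The receptor gene nhr-49 averaged -0.69 ± 0.30 and passed (limma adjusted p = 0.0363), but not without preparation 1, 2 or 3 (adjusted p = 0.129, 0.0896 and 0.0963). nhr-80, its partner, averaged 0.47 ± 0.33 (limma adjusted p = 0.113), and the coactivator gene mdt-15 averaged -0.54 ± 0.53 (adjusted p = 0.147). In preparation 2, where lbp-8 stood at 5.78, these 4 genes lay at -1.43, -0.98, 0.83 and 0.06. Of 15 lipid-sensing regulators 1 was higher, nhr-8 at 1.304 ± 0.21 (limma adjusted p = 0.00348), and 1 lower, nhr-49 (list median 0.11). Of 6 lipases 1 was higher, lipl-5 at 2.04 ± 0.29 (limma adjusted p = 0.00123). Lower were lipl-3 at -1.58 ± 0.43 and lipl-7 at -0.66 ± 0.25 (limma adjusted p = 0.00436 and 0.0356), the call of lipl-7 being lost without any 1 preparation (adjusted p between 0.0716 and 0.103; list median -0.58).

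The other lists moved both ways. Of 14 desaturase and elongase genes 3 were higher and 5 lower (list median -0.27), led by the desaturase genes fat-3 (-2.91 ± 0.13), fat-5 (-1.75 ± 0.77) and fat-2 (-1.23 ± 0.20). All genes called lower were desaturase genes and all called higher were elongase genes, though not every elongase gene had a mean above 0. The call of fat-5 was lost without preparation 1 (limma adjusted p = 0.0522), and without preparation 1 or 3 no gene of this list was higher. Of 13 genes of fat storage and breakdown 4 were higher and 2 lower (list median -0.24). The lipid droplet gene plin-1 averaged -1.32 ± 0.12, the triglyceride synthesis gene dgat-2 1.23 ± 0.21 and the fatty acid synthase gene fasn-1 1.14 ± 0.61. The call of fasn-1 was lost without preparation 2, 3 or 4 (limma adjusted p = 0.0610, 0.0840 and 0.0770). Without preparation 3 or 4, 2 genes of the storage list were higher. Of 12 extracellular lipid carriers and genes grouped with them, 2 were higher and 7 lower (list median -0.63). The yolk genes vit-5 at -6.32 ± 0.93, vit-2 at -5.78 ± 0.76 and vit-6 at -5.03 ± 0.84 were lowest. Without preparation 1, 2 or 4, 1 gene of the carrier list was higher, and without preparation 3, 1 storage gene was lower. The count of lower carrier genes fell to 5 with any 1 preparation left out, and to 4 in preparations 1 and 2 alone. These counts are to be read against the 8.31% and 10.8% over all genes and probes given above.

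**Figure D4:**
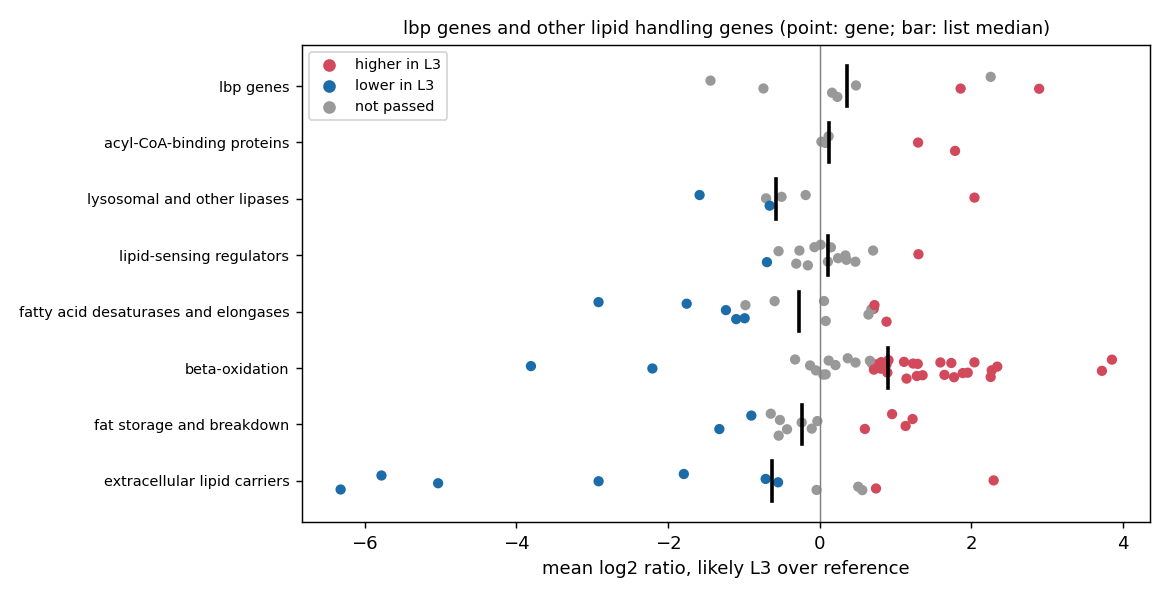
Mean log2 ratio (horizontal axis, likely L3 over reference) of each measured gene in the lbp family and in 7 lists of lipid handling genes; each point is a gene, coloured by its call in limma, and bars are list medians. The lbp family spans -1.44 to 2.90, and beta-oxidation genes lie mostly to the right of 0.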

How the data were processed

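The deposited table holds 1 log2 ratio per probe and array for 21632 probes and 4 arrays. What the authors did for background, normalization and spot filtering is not stated in the labels or the file. From the values, 2 raised to each log2 value is a multiple of 0.001 for 99.96% to 100.0% of entries (within 0.02 of a step), and deposited medians lie between -0.03 and 0.02, so the scale is known and the centring method is not. The direction is not stated and is called likely from the order of names in the descriptions; the low adult and oocyte transcripts in the report bear on it. Probe symbols come from GEO's platform annotation and were updated by Entrez number for 16360 probes. Here each array was centred on its median, probes of a gene were averaged, and genes with values on at least 3 arrays were tested with limma 3.58.1 in R 4.3.3 (lmFit, eBayes, intercept only, two-sided, Benjamini-Hochberg over all 19943). The fit was tested on simulated data. Within-array differences used exact sign-flip permutation tests. A list median is over members' means. Named genes are all lbp genes, their 2 nearest profiles and adjacent genes (nearest protein-coding gene, a detail settled after the data were seen). Also named are up to 3 passing genes per list with the largest absolute mean, and lipl-4, nhr-49, nhr-80 and mdt-15. The genes maa-1, acbp-5 and acbp-6 had means between 0.02 and 0.12. The members and lists were chosen with earlier results of these data known. The number of arrays limits the precision. Sequences of probes, promoters and proteins were not used here.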

Additional observations from a re-analysis of the deposited data

Results flagged for a closer look

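In 2 of 8 lbp genes 1 array stood farther from the rest than Dixon's test allows for 4 values. The test takes the gap over the range, at the 95% level, and about 1 in 20 groups would be marked by chance. The share of all genes and probes so marked is not given here, so the count is not read as a trait of the family. lbp-5 lay at -4.94 in preparation 3, a gap of 0.895 of its range. lbp-6 lay at 2.22 in preparation 2, a gap of 0.934 of its range, with its whole range only 0.50, and its call was kept without that array. The 5.78 of lbp-8 in preparation 2, a gap of 0.809, stayed below the critical ratio, as did the 3.83 of lbp-7 in preparation 2, at 0.823.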

How the results depend on the processing

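No paired analysis was possible because there is 1 group, measured once per preparation. lbp-6 and lbp-7 kept their direction and call in every alternative run. The count of higher lbp genes was 2, or 3 with lbp-8 with arrays scaled to equal spread or preparation 2 was left out; the count of lower ones was 0, or 1 (lbp-1) in preparations 3 and 4 alone and with month as a fixed term, the latter chosen after seeing the data. With any 1 preparation left out, 883 to 1203 genes and probes passed as higher and 1037 to 1759 as lower, where all values were required on the 3 arrays left. Preparations 1 and 2 alone gave 691 higher and 804 lower, 3 and 4 alone 716 and 978, from fewer arrays, and trended, robust moderation 1044 higher; its trend runs over mean ratios, since intensities were not analysed here. The month as a random block had a correlation of -0.117. Of the counts in the 7 lipid lists, 161 stayed within 1.5 times under these settings and 35 did not. The calls of fat-2, dgat-2 and fasn-1 were lost in preparations 1 and 2 alone, that of fat-5 in 3 and 4 alone, those of nhr-49 and lipl-7 in both, and that of mig-6 in both and with trended, robust moderation. Changes of sign touched members that did not pass: lbp-4 at -0.092 in preparations 1 and 2 alone and -0.0026 without preparation 4 (0.37 without 2), and lbp-2 at -0.076 in 3 and 4 alone. Between neighbours in the order, lbp-8 minus lbp-6 was -0.66 without preparation 2 (0.98 at most), lbp-2 minus lbp-4 between -0.21 and 0.36 and lbp-1 minus lbp-5 between -0.28 and 1.24 with 1 preparation left out.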
